A study of Mus musculus with 9 samples.

Results

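Primed epiblast-like stem cells (primed mEpiSCs) were compared with naïve embryonic stem cells (naïve mESCs), both at passage 15 (P15), with 2 RNA-seq libraries in each group. These 4 libraries were taken by their labels and make up 4 of the 9 RNA-seq samples of the study, which also sequenced both states at passage 5 (P5, 4 libraries) and 1 library of mouse embryonic fibroblasts (MEF). All stem cell libraries came from a C57 x CBA background and, per the methods of the study, from a line that carries a green fluorescent reporter under the distal *Oct4* enhancer. Naïve cells grew in S/L medium (serum with leukemia inhibitory factor, LIF), and primed cells were converted from naïve cells and grew in F/A medium (basic FGF with Activin A). Both states were kept on a layer of growth-arrested MEFs, so RNA of these feeder cells can enter every stem cell library, and the MEF library served here as a reference for it. Whether this 1 library matches feeders kept in either medium beside stem cells was not tested. Naïve cultures were split with trypsin and primed cultures with collagenase, and the groups therefore differ in medium and in handling as well as in state. Both groups derive from 1 genetic background, so differences between lines were not sampled. The study calls its repeats biological, while the labels give replicate numbers and do not say whether these are separate cultures. The p-values measure the spread between 2 libraries of a group, which may be technical.

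Naïve mESCs resemble the inner cell mass before implantation and depend on LIF, whereas primed mEpiSCs resemble the epiblast after implantation and depend on FGF and Activin. The states share the core factors *Pou5f1*, *Sox2* and *Nanog*. They differ in the transcription factors around this core, in the chromatin state of germline genes and in readiness to enter the germ layers.

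The naïve P15 libraries held 14378051 and 16450941 counts, and the primed P15 libraries held 17264223 and 17368714. Levels are given in CPM, the counts of a gene scaled to a common library size by trimmed means (TMM) over all 9 libraries. At these depths 3 counts in a library, taken as the floor of detection, equal 0.170 to 0.221 CPM, and such floors cover counting error only. Replicates lay close together, with a coefficient of biological variation of 4.79% in the fit.

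The test covered 15733 genes that reached 10 counts in 2 or more of these libraries, and 8899 of them (56.6%) passed an adjusted p of 0.01 in edgeR's quasi-likelihood test. Of all tested genes, 28.2% were higher and 28.4% were lower in primed cells, and these shares are the background for every gene list. Requiring also a change of at least 2-fold left 3646 genes (23.2%), of which 1912 (12.2%) were higher and 1734 (11.0%) were lower. The median log2 fold change (primed over naïve) over all tested genes was -0.0039. A change of 16-fold or more was seen for 276 genes upward and 426 genes downward. Among the called genes, 353 were at or under 3 counts in both primed libraries and 241 in both naïve libraries. Such genes could pass the count filter only through the other state, so in every list below the filter fixed their direction.

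**Figure D1:**
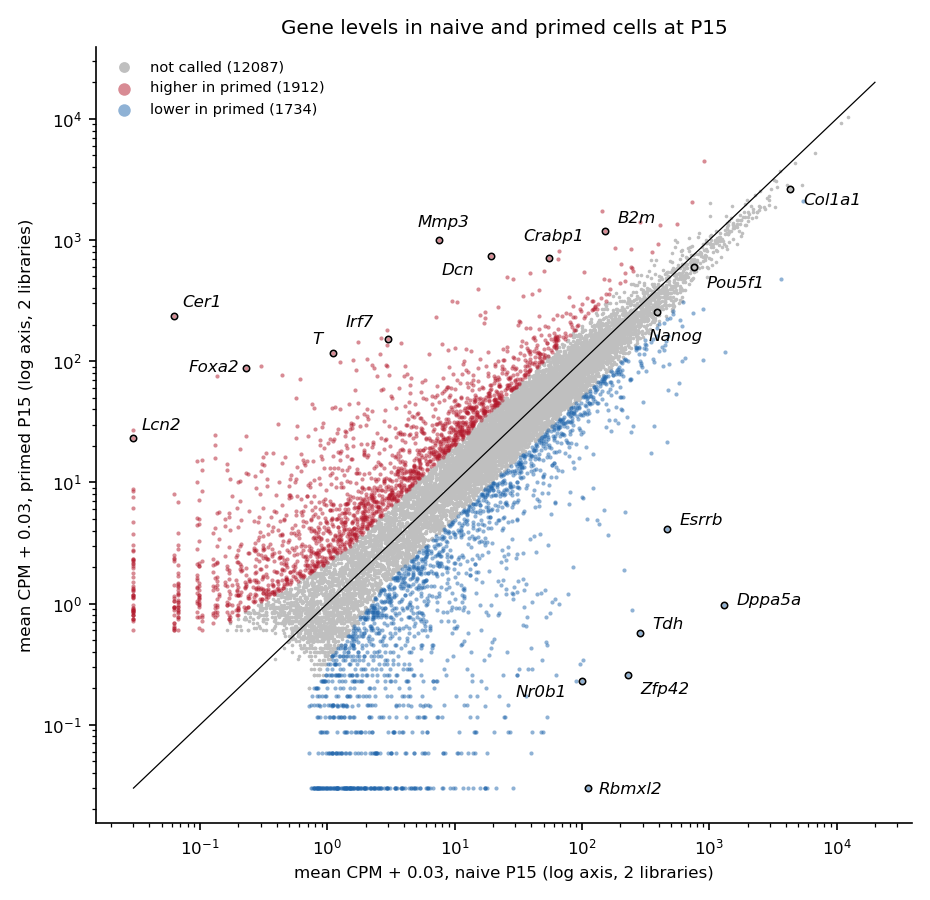
Mean level of each of the 15733 tested genes in the 2 naïve P15 libraries (horizontal, CPM + 0.03, log axis) and the 2 primed P15 libraries (vertical, same scale), with the diagonal marking equal levels. Red points are the 1912 genes called higher and blue points the 1734 genes called lower in primed cells, and the labelled genes include *Pou5f1* and *Nanog* near the diagonal.

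Among protein-coding genes with a mean of at least 10 CPM, the 10 largest falls included genes of early embryos, oocytes and germ cells. *Rbmxl2*, a testis RNA-binding protein gene, had 112 and 112 CPM in the naïve libraries and no count in either primed library, at least 653-fold lower against a floor of 3 counts per library. *Triml1* had 20.3 and 21.7 CPM in naïve cells and likewise no count in primed cells, at least 122-fold lower. The primed libraries held none of either transcript at this depth. *Dppa5a*, which encodes an RNA-binding protein of pluripotent cells, had 1297 and 1301 CPM in naïve cells and 0.689 and 1.19 CPM in primed cells (log2 fold change -10.43 ± 0.11 SE, adjusted p = 2.1e-40). *Tdh*, the threonine dehydrogenase on which mouse embryonic stem cells rely for growth, went from 287 and 280.1 CPM to 0.631 and 0.454 CPM (-9.02 ± 0.13 SE). Both genes were among the abundant transcripts of naïve cells and near the floor in primed cells. *Zfp42* and *Nr0b1* followed, with 100.5 and 101 CPM and 0.402 and 0 CPM for *Nr0b1*, the gene of the receptor DAX1. For *Triml2*, *Zfp981*, *Mymx* and *Ooep* the primed libraries held 1 to 3 counts in all, and *Ooep*, an oocyte protein gene, was 621-fold lower with a 95% counting interval of 212 to 3013.

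By the same rule, the 10 largest rises included genes of the anterior mesendoderm and of secreted proteins. *Cer1*, an extracellular antagonist of Nodal, BMP and Wnt, had 1 count in all in the naïve libraries and 238 and 237 CPM in the primed libraries. *Lhx1* and *Foxa2*, transcription factors of the anterior streak and endoderm, were at 72.6 and 77.1 CPM and at 89.1 and 86.4 CPM in primed cells, and no naïve library exceeded 0.256 CPM for either gene. *Lcn2*, which encodes the iron-carrier-binding protein lipocalin 2, had no count in naïve cells and 23.2 and 23.2 CPM in primed cells, at least 105-fold higher. *Mmp3*, a secreted metalloproteinase, rose from 6.92 and 7.99 CPM to 999 and 1015 CPM (log2 fold change 7.06 ± 0.08 SE, adjusted p = 9.7e-39), while the MEF library held 0.128 CPM. *C3*, the central complement protein, rose from 0.368 and 0.448 CPM to 74.8 and 78.7 CPM (7.51 ± 0.17 SE). The remaining genes were *Klhl4*, *Steap4*, *Hsd11b1* and *Chgb*, all at or under 0.32 CPM in naïve cells and between 18.3 and 96.1 CPM in primed cells. Fitted fold changes of genes near 0 in a group depend on the count added by the fit and are no bounds.

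Most markers moved in the direction of the labelled states. Of 20 factors of the naïve network, 18 could be tested, and 16 fell, each by at least 2-fold, beside 28.4% of all tested genes that fell. The list had a median log2 fold change of -4.42. *Esrrb*, an orphan nuclear receptor of the naïve network, fell from 466 and 462 CPM to 4.59 and 3.52 CPM (-6.85 ± 0.09 SE). *Zfp42* (*Rex1*) fell from 232 and 227 CPM to 0.23 and 0.227 CPM, and *Tfcp2l1*, a target of LIF signalling, from 222 and 218 CPM to 5.85 and 5.51 CPM. *Klf4* and *Tbx3* kept 52 and 55.8 CPM and 27.9 and 25.3 CPM in primed cells. The exception that rose was *Sp5*, a Wnt target (0.70 ± 0.16 SE). *Pou5f1* was at 753 and 760.3 CPM in naïve cells and at 612 and 583 CPM in primed cells (-0.35 ± 0.05 SE), *Nanog* fell by 0.62, and *Sox2* fell from 461 and 452 CPM to 144 and 147 CPM (-1.66 ± 0.06 SE). Libraries of the groups did not overlap for any of the core factors named here, although *Pou5f1* changed by less than 2-fold. The share of all tested genes without such overlap is not given here, and 56.6% of all tested genes passed the test.

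Among 22 genes of the primed and post-implantation epiblast, all tested, 14 rose (10 by at least 2-fold) and 5 fell (3 by at least 2-fold). *Dnmt3b*, which the study uses as a primed marker, rose by less than 2-fold. It went from 301 and 298 CPM to 372 and 365 CPM (0.29 ± 0.06 SE). *Fgf5*, a ligand of the epiblast after implantation, rose from 1.77 and 1.66 CPM to 143 and 143 CPM (6.37 ± 0.12 SE). *Otx2* rose from 10.4 and 12.4 CPM to 78.6 and 79.2 CPM, and *Pim2*, a serine/threonine kinase, from 42.9 and 37.8 CPM to 360.4 and 352 CPM. Against its place in the list, *Grhl2*, a factor of epithelial enhancers, fell from 26.2 and 24.4 CPM to 2.35 and 2.16 CPM (-3.49 ± 0.17 SE). *Tcf15* and *Etv4* also fell, by 1.76 and 1.38 on the log2 scale.

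Fibroblast markers were detected in all 4 libraries. The 35 fibroblast markers summed to 26063 to 27155 CPM in naïve libraries, 22013 to 22988 CPM in primed libraries and 95127 CPM in the MEF library, and none of them was at the floor in either state. *Col1a1*, the chain of type I collagen that fibroblasts secrete in bulk, was at 4272 and 4386 CPM in naïve cells, 2775 and 2532 CPM in primed cells and 26126 CPM in MEFs. Of the 35 markers, 14 were higher and 12 lower in primed cells, and 29 were higher in MEFs than in both states. The part of feeder RNA in differences of such genes was not tested. *Dcn* and *Lum*, small proteoglycans of connective tissue, were higher in primed cells than in the MEF library. *Dcn* rose from 18.9 and 19.9 CPM to 720.04 and 749 CPM and *Lum* from 9.8 and 9.34 CPM to 299 and 323 CPM, while the MEF library held 211 CPM and 148 CPM. In bulk RNA, fewer cells of a type and less RNA per cell cannot be told apart.

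Germline genes fell together. In naïve mESCs a set of germ cell and meiosis genes is transcribed at a low level, and in the embryo these genes are later silenced in somatic lineages by promoter DNA methylation and by repressors bound to E-box sequences. Of 57 such genes, 39 passed the count filter, and 31 of these were lower by at least 2-fold in primed cells, beside 11.0% of all tested genes. Of the 39 tested genes, 15 were at or under 3 counts in both libraries of a state. These could pass the count filter only through the other state, so the filter fixed their direction. The median log2 fold change was -4.80, or -4.37 with genes at the floor set to their bounds. *Ddx4*, the RNA helicase Vasa, had 21.9 and 22.8 CPM in naïve cells and 0.23 and 0.0568 CPM in primed cells (-7.23 ± 0.29 SE, adjusted p = 2.6e-22). *Mael*, a piRNA pathway gene, was at 15.6 and 13.1 CPM in naïve libraries and had 1 count in all in primed libraries, a ratio of 500.04 with a 95% counting interval of 89.3 to 19797. *Piwil2*, which encodes a Piwi protein, was at 25.9 and 28.3 CPM against 0 and 0.114 CPM. *Dazl* and *Sycp3*, genes of germ cell translation and of the synaptonemal complex, had 1 count each in the primed libraries and 8.54 and 8.12 CPM and 6.19 and 5.5 CPM in naïve cells. These genes were near or under detection in primed cells. The list was not uniform, and 4 genes rose, among them *Tdrd7*, *Ifitm3* and *Tdrkh* by 2.08, 1.80 and 1.34 on the log2 scale. Of these, *Ifitm3* is also an interferon-stimulated gene.

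**Figure D2:**
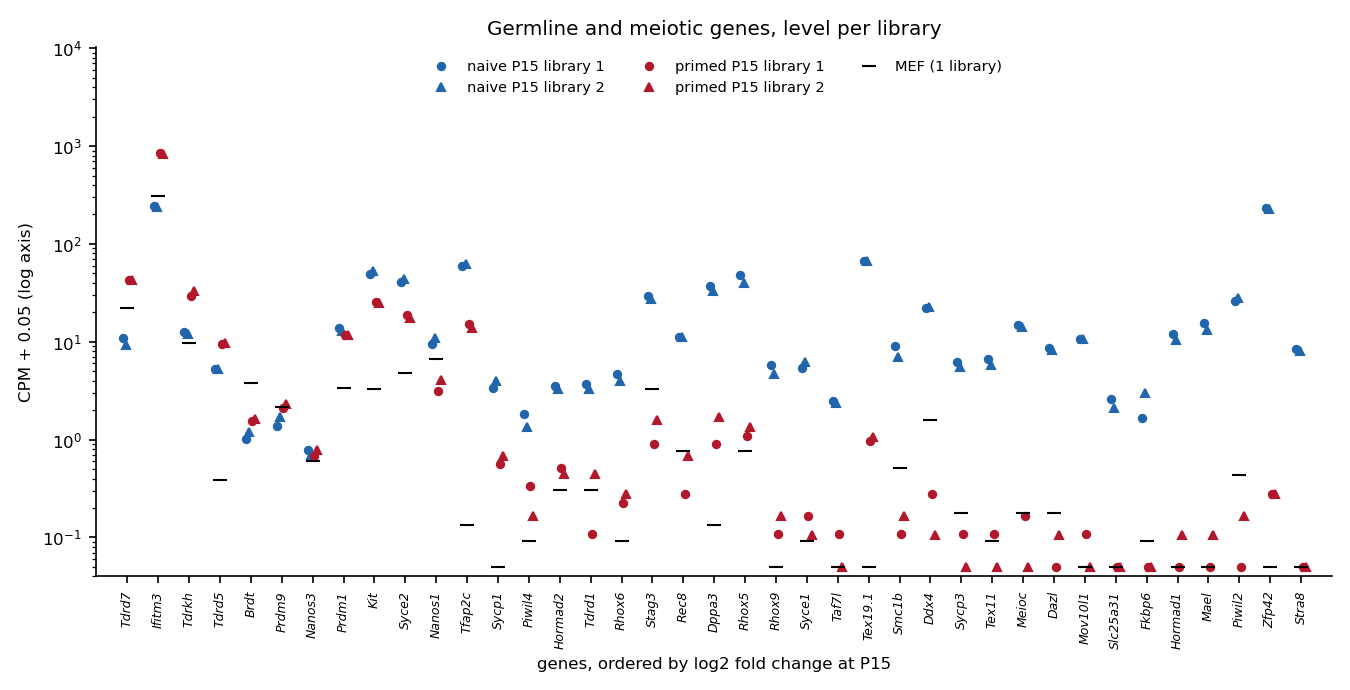
Level of the 39 tested germline and meiotic genes in each library (CPM + 0.05, log axis), ordered from the largest rise to the largest fall in primed cells, with blue symbols for naïve P15, red for primed P15 and a black bar for MEF. From *Kit* to the right the naïve symbols lie above the primed ones, and for many genes the primed symbols reach the bottom of the axis, which stands for no count.

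Promoters were searched for CACGTG, which reads alike on both strands. Of 46 list genes with a RefSeq promoter (250 bases before to 50 after the start, GRCm38.p6), 15 (32.6%) held the motif, beside 11.4% of 11397 tested genes with a promoter and 7.15% of all 32851 promoters. A match is a description of the letters, not evidence of binding. Stretches of 120 bases are shown for 3 genes that fell below or near the floor, 5′ to 3′ on the strand of the gene, with CACGTG in capitals. They lie at chr1:166238875-166238994 (minus strand), chr3:95559563-95559682 (plus strand) and chr13:112652277-112652396 (minus strand), and the genes were chosen after their values were seen. *Hormad1*, which encodes a protein of meiotic chromosome axes, was at 11.9 and 10.4 CPM in naïve and 0 and 0.0568 CPM in primed cells.
Mael: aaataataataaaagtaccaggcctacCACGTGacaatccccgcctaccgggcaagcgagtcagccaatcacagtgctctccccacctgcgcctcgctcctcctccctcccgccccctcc
Hormad1: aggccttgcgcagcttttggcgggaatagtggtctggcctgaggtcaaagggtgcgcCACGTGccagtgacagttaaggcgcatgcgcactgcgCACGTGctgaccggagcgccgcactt
Ddx4: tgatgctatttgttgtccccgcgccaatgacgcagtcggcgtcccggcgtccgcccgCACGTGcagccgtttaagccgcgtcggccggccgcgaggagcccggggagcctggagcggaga

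Interferon-stimulated genes rose in primed cells. These genes answer to type I and type II interferons through factors of the STAT and IRF families and encode antiviral effectors. All 42 genes of the list were tested, and 39 rose (32 by at least 2-fold), 1 fell and 2 did not pass the test, beside 28.2% of all tested genes that rose. The median log2 fold change was 2.67, or 2.58 with genes at the floor set to their bounds. *Isg15*, a ubiquitin-like modifier, rose from 7.66 and 6.52 CPM to 228 and 236 CPM (32.6-fold, log2 fold change 5.03 ± 0.09 SE, adjusted p = 2.8e-33). *Oasl2*, of the oligoadenylate synthetase family, rose from 2.73 and 3.07 CPM to 184 and 179 CPM (5.95 ± 0.11 SE). *Ifit1*, which binds foreign RNA ends, rose from 2.8 and 3.01 CPM to 86.6 and 96.8 CPM (4.96 ± 0.12 SE). The primed libraries lay above the naïve libraries for each of them and above the MEF library, which held 12.4 CPM, 9.48 CPM and 5.19 CPM. A level above the MEF library does not show which cells hold a transcript. The fibroblast markers *Dcn* and *Lum* also lay above it in primed cells. The part of feeder RNA in the levels of interferon-stimulated genes was not tested. Of the regulators, *Irf7*, the factor that amplifies the type I response, rose from 2.87 and 3.01 CPM to 154 and 149 CPM (5.67 ± 0.11 SE). *Trim25*, a ubiquitin ligase of the RIG-I pathway, was the gene that fell, from 131 and 126 CPM to 66.4 and 57.8 CPM. Markers of leukocytes, which express such genes strongly, did not move alike. *Ptprc*, *Csf1r* and *Adgre1* were at or under 0.909 CPM in all 4 libraries. Of 15 markers 6 were tested, of which 2 rose and 2 fell, with log2 fold changes from -7.23 to 2.59. *Lyz2* was among those that rose and *Laptm5* among those that fell. At the floor were 5 markers in naïve cells only, 1 in primed cells only and 2 in both. *Adgre1* had 2 counts in all in naïve and 23 in primed libraries (95% counting interval of the ratio 2.37 to 83.9). *Ptprc* had 5 and 12 counts (0.656 to 7.25). The summed level of those 15 markers was 58.8 to 59.4 CPM in naïve libraries, 24.4 to 24.96 CPM in primed libraries and 124 CPM in the MEF library, and their part in the rise of interferon-stimulated genes was not tested.

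Genes of MHC class I antigen presentation also rose. Of 37 genes, 30 were tested, and 24 rose, 23 of them by at least 2-fold, while 4 fell. Their median log2 fold change was 2.45. *B2m*, the light chain of every class I molecule, rose from 152 and 149.97 CPM to 1139.7 and 1218 CPM (2.95 ± 0.06 SE), against 276 CPM in MEFs. *H2-D1*, a classical heavy chain, rose from 25.4 and 25.8 CPM to 506 and 479 CPM (4.25 ± 0.07 SE), against 21.7 CPM in MEFs. For both genes the primed libraries lay above the naïve libraries and the MEF library, and the part of feeder RNA in these levels was not tested. *Psmb8*, a catalytic subunit of the immunoproteasome, rose from 2.87 and 2.81 CPM to 92 and 93 CPM, and *Nlrc5*, the transactivator of class I genes, from 0.368 and 0.576 CPM to 8.61 and 10.1 CPM (4.26 ± 0.31 SE). *H2-M5* moved against the list, from 26.8 and 23.1 CPM to 0.0574 and 0.114 CPM. Class I heavy chain genes are close copies, so how reads were shared among them by the counting is uncertain.

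**Figure D3:**
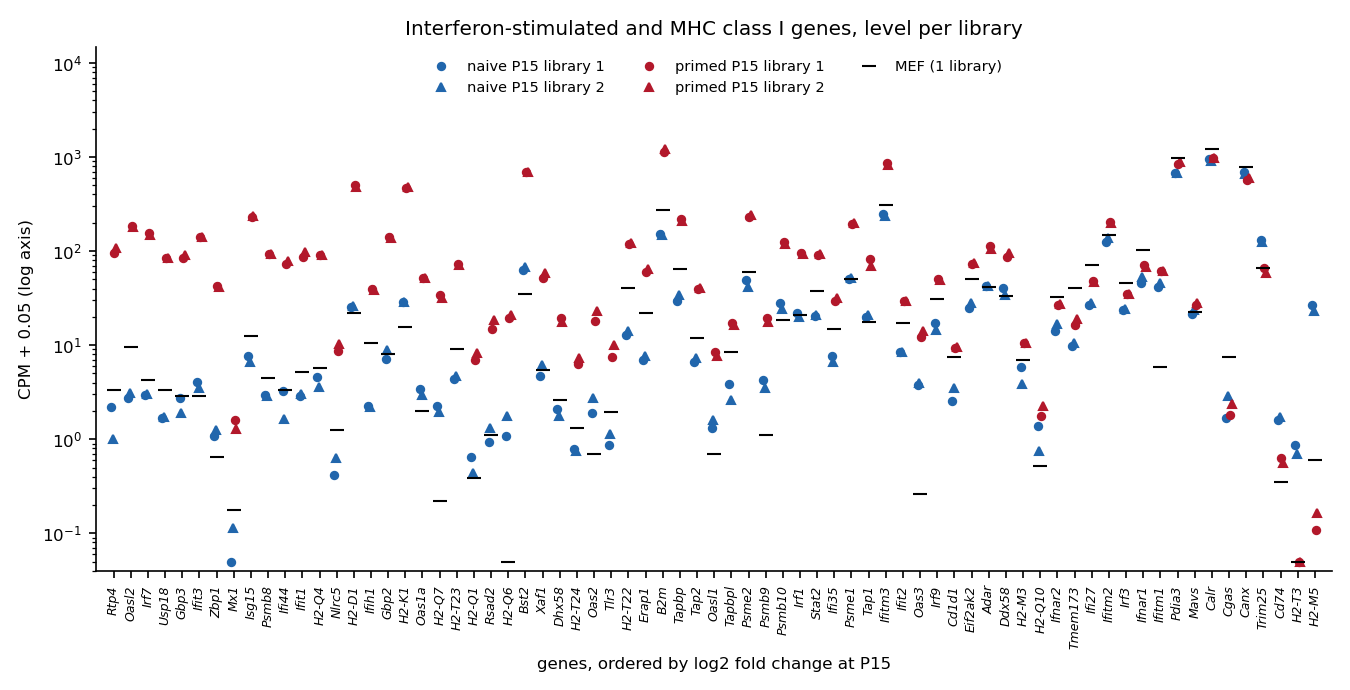
Level of the tested interferon-stimulated and MHC class I genes, other than 1 gene not reported here, in each library (CPM + 0.05, log axis), ordered by log2 fold change at P15, with blue symbols for naïve P15, red for primed P15 and a black bar for MEF. The red symbols lie above the blue ones for most genes, and for *Isg15*, *Irf7*, *Oasl2* and *H2-D1* they also lie above the MEF bar.

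Promoters of interferon-stimulated genes often hold an interferon-stimulated response element. The letters GAAA, repeated after a gap of 2 bases (TTTC on the other strand), were found in the promoter of 15 of 33 list genes with a RefSeq promoter (45.5%), in 5 of 29 MHC class I genes (17.2%) and in 3.64% of the 11397 tested genes with a promoter (3.44% of all promoters). Stretches of 120 bases with these letters in capitals are shown for 4 genes that rose: *Isg15* at chr4:156200832-156200951 (minus strand), *Ifit1* at chr19:34640730-34640849 (plus strand), *Bst2* at chr8:71537538-71537657 (minus strand) and *Oas3* at chr5:120777670-120777789 (minus strand). Overlapping matches are merged in the *Isg15* and *Bst2* stretches. *Bst2*, which encodes the antiviral protein tetherin, rose from 62.4 and 67.2 CPM to 697 and 688 CPM, and *Oas3* from 3.68 and 3.9 CPM to 12.2 and 14 CPM. All 4 were chosen for display after their values were seen.
Isg15: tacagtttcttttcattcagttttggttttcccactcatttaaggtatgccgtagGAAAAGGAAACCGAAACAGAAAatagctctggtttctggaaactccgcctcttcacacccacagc
Ifit1: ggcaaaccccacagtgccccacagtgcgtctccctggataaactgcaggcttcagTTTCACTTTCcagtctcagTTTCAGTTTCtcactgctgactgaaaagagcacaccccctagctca
Bst2: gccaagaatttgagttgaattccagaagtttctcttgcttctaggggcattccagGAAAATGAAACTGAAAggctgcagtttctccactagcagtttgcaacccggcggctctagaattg
Oas3: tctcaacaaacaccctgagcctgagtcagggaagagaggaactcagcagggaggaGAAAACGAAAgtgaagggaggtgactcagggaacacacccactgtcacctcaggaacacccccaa

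Secreted inflammatory and proteolytic genes rose as well. Of 62 chemokine, interleukin and acute phase genes, 35 were tested, and 26 rose, 24 of them by at least 2-fold, while 3 fell. Of the 35 tested genes, 10 were at or under 3 counts in both naïve libraries. They could pass the count filter only through the primed libraries, so the filter fixed their direction. For this list the median log2 fold change was 2.95, or 2.17 with genes at the floor set to their bounds. *Hp*, haptoglobin, had 2 counts in all in naïve libraries and 15.1 and 14.5 CPM in primed libraries. *Ptgs2*, cyclooxygenase 2, fell from 277 and 268 CPM to 138 and 147 CPM (-0.95 ± 0.06 SE), and *Cxcl12* and *Cxcl14*, both higher in MEFs, fell by 0.27 and 1.20 on the log2 scale. Of 51 metalloproteinase and inhibitor genes, 41 were tested, with 29 higher and 8 lower. *Mmp10* rose from 0.958 and 0.384 CPM to 22.3 and 26.2 CPM, and *Mmp2*, gelatinase A, rose from 143 and 154 CPM to 484 and 462 CPM (1.66 ± 0.06 SE) against 412 CPM in MEFs. Lysosomal proteases were higher too: *Ctsl*, cathepsin L, rose from 291 and 284 CPM to 1397 and 1437 CPM (2.29 ± 0.06 SE) and *Ctsb* from 404 and 409 CPM to 1369 and 1289 CPM. Among 55 tested lysosome and autophagy genes, 32 rose and 9 fell, and *Ulk1*, the kinase that starts autophagy, was one that fell (-1.51 ± 0.07 SE).

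Genes of the primitive streak, where epiblast cells ingress to form mesoderm and endoderm, rose in primed cells. Of 27 such genes, 24 were tested, and 17 rose and 3 fell, with a median log2 fold change of 1.92. *T* (brachyury) rose from 0.81 and 1.34 CPM to 117 and 117 CPM (6.72 ± 0.14 SE), *Eomes* from 4.57 and 4.22 CPM to 57.7 and 52.4 CPM (3.64 ± 0.12 SE), and *Gsc*, a factor of the organizer, from 1.03 and 0.767 CPM to 32.7 and 28.6 CPM (5.08 ± 0.20 SE). Each was at most 4.57 CPM in naïve cells. *Mixl1* rose from 0.663 and 0.384 CPM to 9.3 and 10.6 CPM and *Aplnr*, the apelin receptor, from 2 counts in all to 15.3 and 15 CPM. *Sox17*, an endoderm factor, rose from 0.295 and 0.576 CPM to 17.6 and 15 CPM (5.16 ± 0.27 SE), while *Gata6* and *Gata4*, which MEFs also express, reached 18.5 and 18.1 CPM and 5.91 and 7.78 CPM. Trophoblast factors *Cdx2* and *Elf5* were at or under 1.15 CPM in all 4 libraries. Of 28 extraembryonic markers, 24 were tested, with 10 higher and 8 lower.

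Neural genes did not move as one. Of 31 neural and neural crest markers, 26 were tested, with 14 higher and 7 lower. *Sox3* and *Nes* rose, by 2.06 and 1.14 on the log2 scale. *Pax6*, an early neuroectoderm factor, fell from 9.65 and 7.8 CPM to 0.402 and 0.227 CPM (-4.77 ± 0.34 SE) and *Tubb3*, neuronal tubulin, from 64.6 and 60.4 CPM to 12.9 and 14 CPM (-2.22 ± 0.10 SE). Of 39 Hox genes, 30 were tested, 5 rose and 4 fell, and 26 were higher in the MEF library than in both states.

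Signalling pathways were read from ligands to feedback targets. In the Nodal pathway the ligand *Nodal* was at 63 and 56.5 CPM in naïve and 61.1 and 63.8 CPM in primed cells and did not pass the test (adjusted p = 0.55). Its co-receptor *Tdgf1* fell from 922 and 878 CPM to 667 and 682 CPM (-0.43 ± 0.05 SE). *Lefty1*, a target and secreted inhibitor of Nodal, rose from 183 and 183 CPM to 877 and 845 CPM (2.22 ± 0.06 SE) and *Lefty2* from 82.9 and 87.6 CPM to 277 and 289 CPM. The convertase *Pcsk6* fell from 38.9 and 45 CPM to 3.44 and 3.75 CPM (-3.55 ± 0.14 SE). Over the 29 genes of the pathway, 27 were tested, 13 rose and 7 fell. The Id genes, which are targets of BMP, fell. *Id1*, an inhibitor of differentiation factors, fell from 69.8 and 66.6 CPM to 21.4 and 20.7 CPM (-1.71 ± 0.09 SE), *Id2* from 50.5 and 48.7 CPM to 9.7 and 9.83 CPM (-2.35 ± 0.11 SE) and *Id3* from 162 and 166 CPM to 84 and 82.9 CPM. The antagonists *Chrd* and *Nog* rose from 3.9 and 4.03 CPM to 79 and 72.5 CPM and from 1.18 and 1.34 CPM to 19.2 and 17.1 CPM, and the ligand *Bmp2* rose from 1.92 and 1.34 CPM to 54.6 and 59.988 CPM. Of all 35 BMP and Id genes, 16 rose and 10 fell.

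Fibroblast growth factor ligands moved in opposite directions. *Fgf4*, the ligand of naïve cells, fell from 173 and 149 CPM to 3.33 and 3.98 CPM (-5.47 ± 0.11 SE), and *Fgf8*, a ligand of the streak, rose from 1.1 and 1.34 CPM to 105 and 89.8 CPM (6.29 ± 0.15 SE). The feedback genes split, since the phosphatase *Dusp6* rose by 0.82 and the inhibitor *Spry4* fell by 1.24 on the log2 scale. Of 46 genes, 45 were tested, 17 rose and 19 fell (18 and 15 under library size alone). In Wnt signalling, 56 of 58 genes were tested, and 32 rose and 9 fell. The ligand *Wnt3* rose from 1.47 and 1.47 CPM to 28.3 and 26.6 CPM (4.21 ± 0.18 SE) and the secreted inhibitor *Dkk1* from 0.221 and 0.384 CPM to 18.9 and 15.8 CPM (5.77 ± 0.28 SE). *Axin2*, a common target of the pathway, was at 16.9 and 17.3 CPM and 14.6 and 16.2 CPM and did not pass the test (adjusted p = 0.25). *Shh*, the hedgehog ligand of the node, rose from 0.147 and 0.256 CPM to 23.2 and 24.7 CPM (6.80 ± 0.27 SE), whereas its target *Gli1* fell from 26.4 and 28.9 CPM to 12.1 and 15.3 CPM (-1.03 ± 0.12 SE). In the retinoid list 24 of 27 genes were tested, with 14 higher and 5 lower. *Cyp26a1*, which degrades retinoic acid, rose from 0.516 and 0.64 CPM to 69.1 and 72.9 CPM (6.90 ± 0.17 SE), and *Crabp1*, which binds it, from 54.6 and 55.1 CPM to 709 and 721 CPM (3.69 ± 0.06 SE). Guidance genes rose more often than they fell, with 29 semaphorin, plexin, netrin and slit genes higher and 7 lower of 46 tested. *Sema7a* rose from 7.73 and 9.79 CPM to 125 and 120.2 CPM.

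Of 25 LIF and STAT3 signalling genes, 12 fell and 9 rose (11 and 11 under library size alone). *Lifr*, the LIF receptor, fell from 40.8 and 44.6 CPM to 16.8 and 16.1 CPM (-1.39 ± 0.10 SE), whereas *Socs3*, a direct target of STAT3, did not pass the test at 118 and 114 CPM and 134 and 128 CPM. Immediate early genes were mostly lower, and of 26 AP-1 and other such genes, all tested, 18 fell and 2 rose. *Nr4a1*, an orphan nuclear receptor induced within minutes by growth signals, fell from 361 and 375 CPM to 30.4 and 27.7 CPM (-3.68 ± 0.07 SE), and *Atf3* from 79.989 and 80.1 CPM to 7.63 and 8.86 CPM. *Fos* fell from 531 and 501 CPM to 236 and 256 CPM, while *Jun* was at 378 and 376 CPM and 402 and 397 CPM without passing the test (adjusted p = 0.25). Of 26 genes of Krüppel-like and related Sp factors, 22 were tested, 15 fell and 3 rose, and *Klf2* fell from 469 and 459 CPM to 23 and 19.9 CPM (-4.45 ± 0.07 SE). In the Myc network *Mycn* fell from 303 and 281 CPM to 94.5 and 93 CPM and *Mycl* rose from 18 and 17.1 CPM to 91.1 and 90.4 CPM, while *Myc* itself was at 54.3 and 42 CPM and 48.3 and 51.1 CPM (adjusted p = 0.71).

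Tight junction genes fell more often than they rose. Of 44 claudin and tight junction genes, 30 were tested, and 16 fell, 13 of them by at least 2-fold, while 8 rose. *Cldn4* fell from 136 and 135 CPM to 4.53 and 4.43 CPM (-4.93 ± 0.10 SE) and *Cldn7* from 21.9 and 23.6 CPM to 7.92 and 7.38 CPM, whereas *Cldn6* was at 57.5 and 56.4 CPM and 59.2 and 61.5 CPM (adjusted p = 0.4). *Cdh1*, E-cadherin, fell from 399 and 405 CPM to 121 and 119 CPM (-1.75 ± 0.06 SE), and *Cdh2*, N-cadherin, rose from 36.2 and 38.7 CPM to 123 and 125 CPM (1.71 ± 0.07 SE), while the MEF library held 134 CPM. *Cdh1* was at 0.808 CPM in MEFs. Among 99 cadherin and protocadherin genes, 65 were tested, 31 rose and 9 fell. Keratins of simple epithelia were higher in primed cells, with *Krt8* going from 85.1 and 89.5 CPM to 184 and 178 CPM and *Krt18* from 59 and 62.6 CPM to 115 and 112 CPM. *Krt17* and *Pkp3*, a desmosome gene, fell by 4.55 and 3.76 on the log2 scale. Of 61 keratin and desmosome genes, 17 were tested, 5 rose and 8 fell.

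Contractile genes were more often lower than higher. Of 37 actin cytoskeleton genes, 21 were lower and 2 higher (16 and 5 under library size alone), and 31 were higher in the MEF library than in both states. *Acta2*, smooth muscle actin, fell from 1278 and 1374 CPM to 122 and 114 CPM (-3.50 ± 0.06 SE) against 4554 CPM in MEFs, and *Myl9*, a myosin light chain, from 207 and 200.3 CPM to 51.6 and 49.6 CPM. *Acta2* is itself among the fibroblast markers summed above, so their sum is no separate measure for it. The part of feeders in the difference of *Acta2* was not tested. Of 38 integrin and laminin genes, 35 were tested, 18 fell and 12 rose. *Lama1*, a laminin chain of the embryonic basement membrane, fell from 42 and 46.2 CPM to 7.23 and 7.21 CPM, and *Itgb3* rose from 18.9 and 22.3 CPM to 75.9 and 68.8 CPM. *Amot*, an angiomotin that binds YAP, was the largest rise in the Hippo list, from 17.2 and 17.3 CPM to 251 and 259 CPM (3.88 ± 0.08 SE), while the YAP target *Ccn2* fell from 594 and 578 CPM to 217 and 216 CPM and *Yap1* itself did not pass the test (adjusted p = 0.49).

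Many genes of ribosome production, origin licensing and mitosis were lower by small steps. Of 48 ribosome biogenesis genes, all tested, 40 fell and none rose, with a median log2 fold change of -0.50, and under scaling by library size alone 37 fell and none rose. *Ncl*, nucleolin, fell from 2837 and 2681 CPM to 1718 and 1859 CPM (-0.64 ± 0.05 SE), and *Nat10* from 124 and 124 CPM to 65.6 and 57.3 CPM, while *Fbl*, fibrillarin, was at 304 and 304 CPM and 310.5 and 307 CPM (adjusted p = 0.84). Of 86 tested cytoplasmic ribosomal protein genes, 62 fell and none rose, with a median of -0.25, but library size alone left 39 lower and 3 higher. *Rpl10l*, a copy used in the testis, stood apart, with 19 and 16.6 CPM in naïve libraries and 1 count in all in primed libraries. Of 32 genes of the MCM helicase and origin licensing, 25 fell and none rose, and *Cdt1*, the licensing factor, fell from 197 and 193 CPM to 81.8 and 74.5 CPM (-1.33 ± 0.07 SE). Of 40 mitotic genes, 29 fell and 1 rose, with *Ccnb1* going from 446 and 438 CPM to 293 and 283 CPM and *Plk1* being the gene that rose (0.24 ± 0.06 SE). The G1 cyclins, their kinases and the kinase inhibitors did not share a direction, and of 28 such genes 12 rose and 10 fell. *Ccnd1*, cyclin D1, rose from 275 and 266 CPM to 347 and 337 CPM (0.33 ± 0.06 SE), *Ccne1*, the cyclin of entry into S phase, fell from 308 and 288 CPM to 91 and 87.3 CPM (-1.75 ± 0.06 SE), and the inhibitor *Cdkn2b* rose from 24.3 and 19.954 CPM to 72.8 and 70.7 CPM. Falls of at least 2-fold were few, with 2 of the ribosome biogenesis genes, 2 of the cytoplasmic ribosomal protein genes, 2 of the licensing genes and 1 mitotic gene. Under library size alone 22 licensing genes fell and none rose, and 21 mitotic genes fell and 2 rose.

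Genes of amino acid and one-carbon supply were also more often lower than higher. None of 37 tRNA synthetase genes rose and 22 fell (16 under library size alone). Of 33 ATF4 response genes, 20 fell and 6 rose. *Asns*, asparagine synthetase, fell from 282 and 298 CPM to 101 and 92.4 CPM (-1.60 ± 0.06 SE), and *Slc7a11*, the cystine transporter, rose from 4.79 and 5.05 CPM to 16.5 and 15 CPM (1.66 ± 0.16 SE). Besides *Tdh*, the one-carbon list held *Gldc*, the glycine-cleaving enzyme, which fell from 183 and 200.4 CPM to 68.2 and 68.9 CPM (-1.50 ± 0.07 SE). In all 32 of its 36 genes were tested, 20 fell and 3 rose (16 and 5 under library size alone). Heat shock genes were lower in 16 and higher in 6 of 28 cases, and *Hsp90aa1*, an abundant cytosolic chaperone, fell from 5648 and 5246 CPM to 2030.2 and 2160.5 CPM (-1.39 ± 0.05 SE). Of 49 tested proteasome genes, 8 rose and 14 fell, a split that turned to 12 and 8 under library size alone. The largest rises were the immunoproteasome subunits *Psmb8* and *Psmb9* and the activator *Psme2*, which went from 49.3 and 41.8 CPM to 229.99 and 241 CPM. *Psma8*, the subunit of testis proteasomes, fell from 16.6 and 17.8 CPM to 0.0574 and 0.17 CPM.

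Cholesterol synthesis genes rose. Of 33 genes of the cholesterol and isoprenoid list, 32 were tested, and 27 rose, 16 of them by at least 2-fold, while 2 fell. Over the list the median log2 fold change was 1.02. Promoters were also searched for TCACNCCAC (N for any base, either strand), found in 1 of 23 list genes with a promoter (4.35%). Of 11397 tested genes with a promoter, 1.45% held it. *Sqle*, squalene epoxidase, rose from 102 and 107 CPM to 229 and 224 CPM (1.11 ± 0.06 SE). *Fdps*, the synthase of farnesyl diphosphate, rose from 2.65 and 1.73 CPM to 8.03 and 8.01 CPM. The genes that fell were the efflux pumps *Abca1* and *Abcg1*, from 24.7 and 25.8 CPM to 19.3 and 19.7 CPM and from 10.1 and 10.6 CPM to 6.77 and 6.87 CPM. In the fatty acid list 23 of 44 tested genes rose and 11 fell. The desaturase *Scd2* rose from 718 and 739 CPM to 2064 and 2058 CPM (1.49 ± 0.05 SE) and *Fads2* from 43.8 and 48 CPM to 197 and 171 CPM, while *Fabp3*, a fatty acid carrier, fell from 74.2 and 84.4 CPM to 7.29 and 5.79 CPM (-3.61 ± 0.11 SE). Several of these genes are also active in MEFs, with *Sqle* at 197 CPM and *Scd2* at 1950.0 CPM there.

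Genes of metal and oxidant handling moved in both directions. Of 26 tested genes of zinc transporters and metallothioneins, 11 rose and 8 fell, a count that includes the Polycomb gene *Mtf2*. *Slc39a8*, a zinc and manganese importer, rose from 2.43 and 2.81 CPM to 147 and 164 CPM (5.87 ± 0.11 SE), and *Mt1*, metallothionein, fell from 446 and 429.5 CPM to 123 and 126 CPM (-1.83 ± 0.06 SE). *Sod3*, the extracellular superoxide dismutase, rose from 2.06 and 1.98 CPM to 111 and 98 CPM (5.67 ± 0.13 SE) against 47.1 CPM in MEFs. *Gpx4*, which protects membrane lipids from peroxidation, fell from 515 and 521 CPM to 263 and 252 CPM (-1.02 ± 0.06 SE). Of 45 tested antioxidant genes 19 rose and 17 fell. *Nfe2l2*, the factor that controls many of them, was at 90.7 and 88.1 CPM and 89.6 and 88.8 CPM (adjusted p = 0.87).

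Lists of chromatin genes did not move alike. Of 27 genes of DNA methylation and demethylation, 15 fell and 9 rose. *Dnmt3l*, the cofactor of de novo methylation, fell from 246 and 246 CPM to 1.32 and 0.398 CPM (-8.16 ± 0.14 SE), and *Tet1*, which oxidizes methylcytosine, from 501 and 438 CPM to 51.7 and 62.8 CPM (-3.05 ± 0.08 SE). *Tet3* rose from 17.2 and 14.8 CPM to 40.7 and 37.8 CPM, below 108 CPM in MEFs. Of 43 Polycomb genes 22 fell and 8 rose (16 and 10 under library size alone). The accessory subunits *Epop* and *Mtf2* fell from 199.9 and 206 CPM to 41.7 and 38.1 CPM and from 235 and 239 CPM to 71 and 72.4 CPM, and the core subunit *Eed* fell by 1.35 on the log2 scale. *Phc2*, a subunit of the other Polycomb complex, rose from 56.7 and 63.1 CPM to 156 and 136 CPM (1.27 ± 0.07 SE). Among C2H2 zinc finger genes taken by symbol, 341 of 365 were tested, with 73 higher and 91 lower, shares below the background in both directions, and library size alone gave 80 of each. Of 54 tested imprinted genes 24 rose and 10 fell. *Gab1* and *Jade1* fell from 249.6 and 250.0 CPM to 31.3 and 26.6 CPM and from 302 and 302 CPM to 44.9 and 46.4 CPM, and *Nnat*, neuronatin, rose from 12.4 and 13 CPM to 81.8 and 79.5 CPM.

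**Figure D4:**
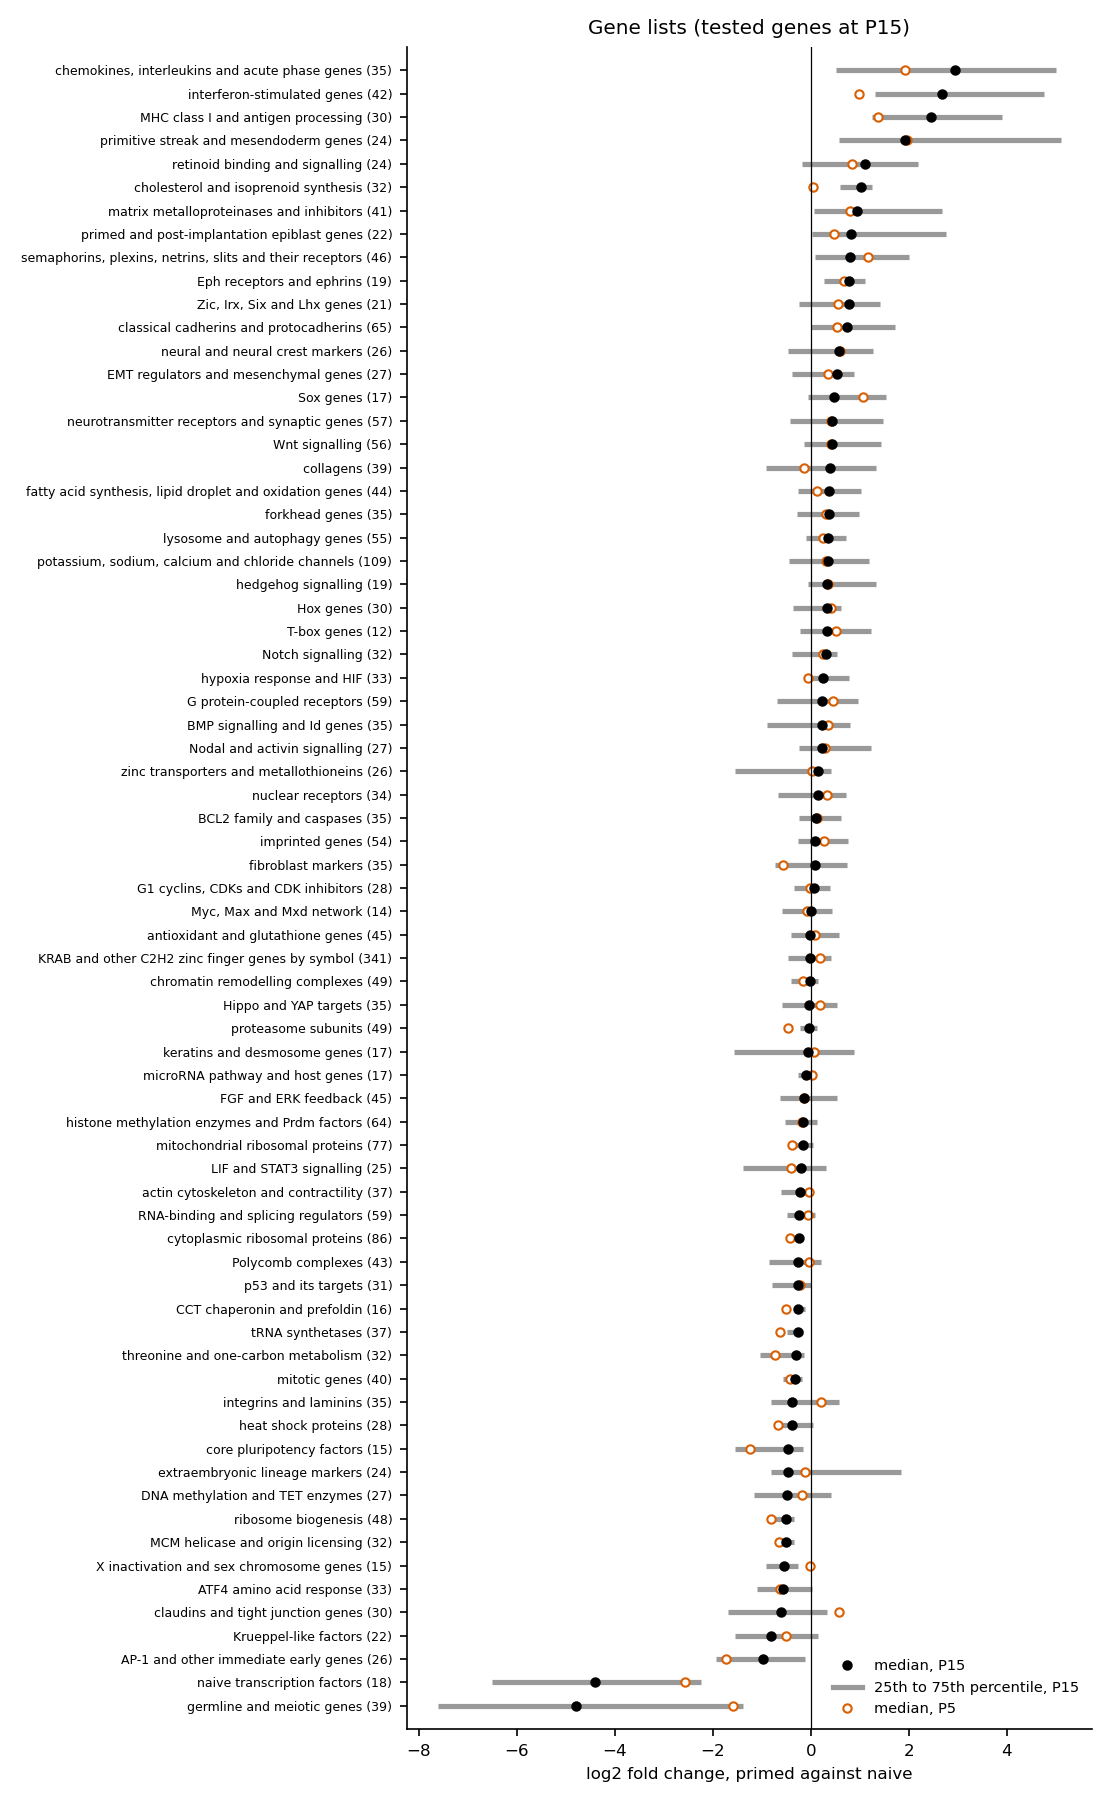
Median log2 fold change of primed against naïve cells for 71 gene lists with at least 10 tested genes, with the number of tested genes in brackets. Black points are medians at P15, grey bars the 25th to 75th percentile at P15 and open orange points the medians of the same genes at P5. Chemokine, interferon and MHC class I lists lie at the top (medians from 2.45 to 2.95) and germline and naïve factor lists at the bottom.

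The P15 difference was then compared with the difference at P5, in a fit of all 8 stem cell libraries that tested the difference of the log2 fold changes. Of 16926 tested genes, 4079 (24.1%) had effects that differed at an adjusted p under 0.01, and 1212 (7.16%) differed by at least 2-fold. Of the latter, 399 (2.36%) were higher and 813 (4.80%) lower at P15. A difference can come from either state, since both were sequenced anew at each passage. Fibroblast markers also moved between the passages. Their summed level was 17329 to 17393 CPM in naïve and 11913 to 12191 CPM in primed libraries at P5, below the P15 sums given above in both states, and no marker was at the floor at P15. Of the 35 markers, 25 had effects that differed, 22 of them higher at P15, and the median change from P5 to P15 was 0.89 in primed cells and 0.42 in naïve cells. *Col1a1* was at 2092 and 2116 CPM in naïve and 776 and 752 CPM in primed libraries at P5. The part of this change in the differences between passages that follow was not tested. Of the interferon-stimulated genes, 35 had a higher effect at P15 and 1 a lower one, beside 13.3% of all genes that were higher. *Isg15* was at 32.2 and 34.5 CPM in naïve and 57.3 and 60.8 CPM in primed libraries at P5, so that its P5 effect was 0.86 and the difference 4.19 ± 0.11 SE. *Oasl2* had an effect of 1.86 at P5 (25 and 23.4 CPM against 88.2 and 84.1 CPM). The median change of the list's genes from P5 to P15 was 0.78 in primed cells and -0.84 in naïve cells (log2 of mean CPM + 0.5), so that levels in both states moved.

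Effects of 28 cholesterol genes differed between the passages, 26 of them higher at P15. Their median log2 fold change was 0.05 at P5. *Sqle* had a P5 effect of -0.10, with 112 and 111 CPM in naïve and 104 and 99.9 CPM in primed libraries (difference 1.22 ± 0.07 SE, adjusted p = 1.2e-14). Germline genes were on balance lower in primed cells already at P5, with a median of -1.59, and 24 of them had a lower effect and 2 a higher effect at P15. *Ddx4*, for example, was at 27.1 and 25.7 CPM in naïve and 2.24 and 2.16 CPM in primed libraries at P5.

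Epithelial genes had lower effects at P15. Of the tight junction genes, 20 had a lower effect at P15 and 1 a higher one, beside 10.8% of all genes that were lower, and the median of the list was 0.58 at P5. *Cdh1* had a P5 effect of 0.21 (424 and 425 CPM against 488 and 474 CPM, difference -1.95 ± 0.06 SE). *Cldn4* had a P5 effect of -0.42, with 191 and 196 CPM and 141 and 142 CPM. *Krt8* and *Krt18* had P5 effects of 3.57 and 3.43, and all 13 keratin and desmosome genes that differed were lower at P15. *Fos* was at 877 and 842 CPM in naïve and 14.1 and 14.3 CPM in primed libraries at P5 (difference 4.83 ± 0.08 SE), and of 18 genes of that list that differed 15 were higher at P15. The median of the ribosome biogenesis genes was below 0 at P5 as well, at -0.82, and 28 of these genes had a higher effect and 1 a lower effect at P15. *Pou5f1* and *Nanog* differed too, with P5 effects of -1.72 and -2.01 against -0.35 and -0.62 at P15.

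**Figure D5:**
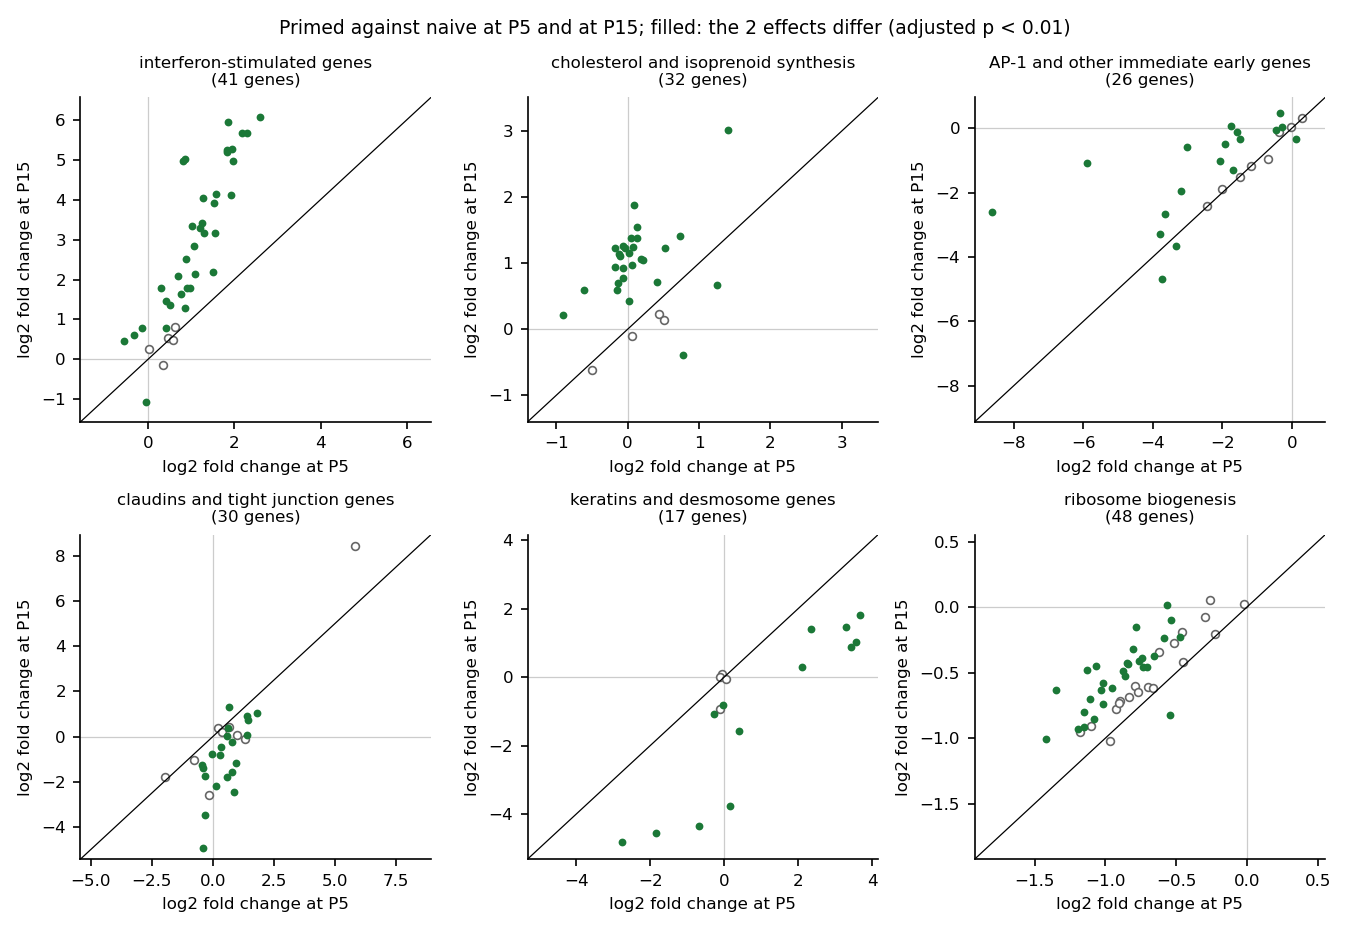
Log2 fold change of primed against naïve cells at P5 (horizontal) and P15 (vertical) for the genes of 6 lists, with filled green points for genes whose effects differed at an adjusted p under 0.01 and the diagonal marking equal effects. Interferon-stimulated genes (35 of them higher at P15 by the test), cholesterol genes (26) and ribosome biogenesis genes (28) lie mostly above the diagonal, and tight junction genes (20 lower) and keratin genes (13 lower) mostly below it.

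Chromosomes and gene types were compared last. The median log2 fold change lay between -0.10 on chromosome 13 and 0.06 on chromosome X for the nuclear chromosomes with at least 10 tested genes, and was -0.37 over 23 mitochondrial genes. *Ddx3y* on the Y chromosome fell from 29.4 and 29 CPM to 14.5 and 15.9 CPM (-0.95 ± 0.11 SE), while *Kdm5d*, on the same chromosome, was at 3.46 and 3.33 CPM and 3.44 and 2.84 CPM (adjusted p = 0.7). The effect of *Ddx3y* at P5 was 0.20 (difference -1.13 ± 0.13 SE). Protein-coding genes were called higher in 1780 and lower in 1434 of 14095 cases. Long intergenic noncoding RNAs (lincRNAs) were called lower in 95 and higher in 32 of 313 cases. Processed pseudogenes were called lower in 84 and higher in 12 of 564 cases, and since they resemble their parent genes their counts are uncertain. The shares called either way were 22.8% of protein-coding genes, 40.6% of lincRNAs and 17.0% of processed pseudogenes. Of all tested genes 23.2% were called, 12.2% higher and 11.0% lower.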

How the data were processed

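RNA-seq libraries were made from poly-A selected RNA with a NEBNext Ultra kit. Per the methods of the study, the authors trimmed reads with cutadapt, aligned them with HISAT2 to mm10, counted them over an Ensembl annotation with featureCounts and tested them with DESeq2. What they deposited is a table of raw counts, with genes in rows and the 9 libraries in columns, not normalized. The strand setting of the counting and its treatment of reads with several matches are not given in the sources used here, so counts of overlapping genes, close copies and pseudogenes are uncertain.

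Of 54232 gene IDs, 54165 were named through GENCODE M21, the 67 others (0.0042 to 0.0053% of the counts) were kept under their ID, and 92 spike-in entries held no count. All per-sample columns were used. Genes with 10 counts or more in 2 or more libraries of the comparison were tested in R 4.3.3 with edgeR 4.0.16 (limma 3.58.1), with TMM scaling and the quasi-likelihood test, and p-values were adjusted by the Benjamini-Hochberg method over all genes tested. Genes were called at an adjusted p under 0.01 and a change of 2-fold or more, while single genes and list members were said to rise or fall at an adjusted p under 0.01 alone. The difference between P15 and P5 was tested as an interaction in a fit of 8 libraries. Levels (CPM) were scaled over all 9 libraries, while log2 fold changes came from the fit of the P15 libraries. DESeq2 1.42.0 was an alternative, beside other scalings, filters, samples and a replicate block. On simulated counts for 15733 genes, all changed genes were recovered at P15 (50 for each log2 change of -2, -1, 1 and 2) and no unchanged gene was called. For the interaction over 16926 genes, 92% were recovered at a log2 change of -1 and 100% at the other sizes, and 2 unchanged genes were called. Far fewer genes changed in the simulated counts than the 56.6% that passed in the data. The changed genes were drawn only from genes with a mean of 100 counts or more, and all genes had the same set spread. Recovery was scored at an adjusted p under 0.01 alone. These shares therefore do not speak for genes at lower counts, such as those near the count filter. Replicates differed by more than sampling noise (chi-square per gene 3.28 in naïve and 3.25 in primed libraries), so none was counted as a repeat of another.

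The groups came from the labels. The comparison and the 72 gene lists were chosen with earlier results of these data known, so no list was given a test or a p-value of its own. The leukocyte markers were added after the data were seen, and 3 list entries were not matched. The rule for naming genes had several parts. It took the 10 largest rises and falls with an adjusted p under 0.01 and a mean of 10 CPM or more. These also had protein-coding annotation and a symbol that is no Gm number or Rik name. It took the anchors of each list with up to 3 members per direction at 5 CPM or more. Last came the 5 genes per direction with the largest difference between P15 and P5, under the same limits on level (over both passages), annotation and symbol. *Bst2*, *Hormad1*, *Oas3*, *Kit* and some genes named for families in the closing section lie outside this rule and were chosen after their values were seen, as were the motifs and the promoters printed. Values of some list genes are not reported here by name. Promoter sequences came from RefSeq (GRCm38.p6).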

Additional observations from a re-analysis of the deposited data

Results flagged for a closer look

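The effect of state differed between the passages for 10 genes in edgeR's interaction test (P15 effect minus P5 effect on the log2 scale, each with 2 libraries per group). These were the 5 largest differences either way among protein-coding genes with a mean of 10 CPM or more over both passages. They are not the most extreme of all tested genes, since *Chgb*, for example, differed by 5.33 in that test. *Rbmxl2* differed by -10.66, with 105 and 107 CPM in naïve and 9.94 and 11.3 CPM in primed libraries at P5 (adjusted p = 1.1e-17). *Triml1*, at 20.8 and 19.7 CPM and 3.13 and 2.61 CPM at P5, differed by -8.75 (adjusted p = 1.2e-10). *Cdcp1*, a membrane glycoprotein gene, had 4.64 and 6.52 CPM in naïve and 0.172 and 0 CPM in primed libraries at P15, a P5 effect of 2.17 and a difference of -8.09. For *Zfp981* the difference was -7.07, with 43 and 40.1 CPM and 6.66 and 7.65 CPM at P5. *Dppa5a* fell at both passages, with a P5 effect of -3.38 and a difference of -7.03.

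In the other direction, *Fosb*, an AP-1 subunit gene, had 656 and 635 CPM in naïve and 103 and 111 CPM in primed libraries at P15, a P5 effect of -8.63 (1303 and 1292 CPM against 3.13 and 3.27 CPM) and a difference of 6.04. *Fos* differed by 4.83 (adjusted p = 1.5e-29). The interferon-stimulated genes *Isg15*, *Ifit1* and *Oasl2* differed by 4.19, 4.16 and 4.10. Fitted differences of genes with 3 counts or fewer in a group depend on the count added by the fit and are no bounds.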

How the results depend on the processing

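None of the 512 named log2 fold changes turned its direction where the gene passed the test in the main fit or the alternative. A change of sign in a gene that passed in neither was not counted. Single genes were not followed in the fit without genes higher in MEFs. In 89 cases a named gene no longer passed the test and in 18 it passed newly. The count of 3646 called genes (1912 higher, 1734 lower) was 3139 with DESeq2's Wald test, 3692 under library size alone (2149 higher, 1543 lower, with the median of all genes moved by 0.10), 2529 (1426 higher, 1103 lower) with a filter at 50 counts and 2912 without genes higher in MEFs. Leaving out a library gave 2946 to 3137 called genes, 1390 to 1876 higher and 1155 to 1591 lower, and the lowest count of lower genes came without replicate 1 of the naïve group. With 1 library left, a group was assumed to vary like the other. The interaction gave 1006 to 1171 genes, 344 to 410 higher and 650 to 761 lower, when a library was left out, beside 1212 (399 and 813). Replicate numbers are shared by the groups, but the replicate differences of the groups correlated at -0.112, so the numbers gave no sign of pairs. A fit with a replicate block called 3369 genes at P15 and 1164 for the interaction. With crossed pairs, chosen after seeing the data, 3647 were called.

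Some medians close to 0 or over few genes changed sign. Without genes higher in MEFs, the medians were -0.40 for BMP, -1.59 for Hox, -0.10 for Notch, -0.10 for hedgehog, -0.0555 for nuclear receptor and -1.39 for zinc and metallothionein genes. With no filter they were -0.16 for collagens and 0.53 for leukocyte markers. With 50 counts they were 0.31 for extraembryonic markers, 0.49 for leukocyte markers, -0.10 for nuclear receptors, -0.31 for genes to be experimentally checked (TEC) and 0.0303 for snoRNA genes. Under library size alone microRNA genes came to 0.0009. Proteasome, Hippo, C2H2 zinc finger, antioxidant, chromatin remodelling and keratin medians, all within 0.10 of 0, also turned from below to above 0. This scaling moved 61 of 72 list medians by more than the spread between library pairs. Leaving out genes higher in MEFs moved 55 likewise, beside the 6 given above. Sign changes of medians within 0.10 of 0, or within that spread, are not listed for the other alternatives. Leaving out a library gave -0.0509 to 0.81 for collagens, -0.11 to 0.69 for synaptic genes, -0.45 to 0.44 for leukocyte markers, -0.10 to 0.29 for nuclear receptors, -0.30 to 0.34 for TEC genes and -0.31 to 0.0458 for processed transcripts. The cause of these changes was not tested. With 2 libraries in a group, depth limits genes near the floor, where a count of 0 allows up to 3 counts.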

Other observations

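Gene families were also taken by the stem of the symbol, after their values were seen, so the counts are descriptions. Of 371 families with at least 6 tested genes, 8 had 75% or more of their tested genes called in 1 direction, beside 12.2% of all tested genes called higher and 11.0% called lower. All 6 tested Dppa genes fell, with a median log2 fold change of -8.64. *Dppa2* and *Dppa4*, which encode a pair of nuclear proteins that open chromatin at early embryonic genes, fell from 98.9 and 104 CPM to 0.172 and 0.454 CPM and from 94 and 84.2 CPM to 0.172 and 0.227 CPM. *Dppa3* (Stella), a maternal factor that protects methylation marks, fell from 36.7 and 33.2 CPM to 0.861 and 1.65 CPM. All 11 guanylate-binding protein (Gbp) genes, which encode interferon-induced GTPases, rose, with a median of 5.07. *Gbp2* rose from 7.07 and 8.76 CPM to 139.7 and 137 CPM (4.11 ± 0.09 SE), against 8.08 CPM in MEFs, and *Gbp3* from 2.73 and 1.85 CPM to 84.8 and 90.9 CPM (5.26 ± 0.13 SE). The Gbp genes are close copies in clusters, so the split of reads among them is uncertain. Of 6 tested Serpina genes, 5 rose and 1 fell, with *Serpina3g* going from 3.39 and 3.9 CPM to 58.5 and 61.5 CPM and *Serpina3n* from 1.69 and 1.41 CPM to 29.2 and 31.9 CPM. The remaining families with such shares were Oas (7 of 7 higher), Ifi (13 of 16 higher), Ccl (7 of 9 higher) and Cxcl (7 of 9 higher), and Platr. Of 20 Platr genes, a name given to noncoding transcripts tied to pluripotency, 19 fell. *Platr10* fell from 101 and 95.4 CPM to 22.7 and 27.5 CPM (-1.97 ± 0.08 SE) and *Platr14* from 58 and 49.9 CPM to 2.01 and 4.03 CPM. The exception, *Platr25*, was at 9.8 and 9.98 CPM and 12.4 and 12.5 CPM with 8.93 CPM in MEFs, and did not pass the test (adjusted p = 0.051). Another lincRNA, *Lncenc1*, fell from 218 and 209 CPM to 1.95 and 1.76 CPM (-6.85 ± 0.11 SE).

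Further lists held values of other kinds of genes. *Foxj1*, the master factor of motile cilia, rose from 2.73 and 2.49 CPM to 58.5 and 57.5 CPM (4.46 ± 0.13 SE), and of 35 tested forkhead genes 17 rose and 7 fell. Of 21 tested Cfap genes, which encode parts of cilia and flagella, 11 were called higher and none lower. Of 19 tested Eph receptor and ephrin genes, 14 rose and 2 fell. *Zic2*, a factor of the primed epiblast, rose from 40.1 and 37.5 CPM to 121 and 123 CPM. Of 31 tested p53 target genes 16 fell and 5 rose, and *Btg2*, an antiproliferative gene of that list, fell from 282 and 285 CPM to 102 and 99 CPM (-1.51 ± 0.06 SE). *Casp4*, the caspase that senses lipopolysaccharide, rose from 0.81 and 0.448 CPM to 14.9 and 14 CPM (4.52 ± 0.26 SE). Of 59 tested genes of RNA-binding and splicing proteins 29 fell and 10 rose (23 and 12 under library size alone), beside 28.4% of all tested genes that fell. Of 77 mitochondrial ribosomal protein genes 28 fell and 7 rose, but under library size alone 17 fell and 12 rose.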
